A study of Mus musculus with 9 samples.

Results

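Gene expression was compared between NIH-CAR cells that received PPARγ without its A/B-domain together with the agonist rosiglitazone and NIH-CAR cells that received an empty virus and vehicle. The comparison used 6 of the 9 arrays of the series, chosen by their titles: the 3 named AdHA-PPARgCDE and the 3 named AdEmpty, numbered 1 to 3 in each group. It was made across 18193 genes, each represented by 1 probe set, the one with the highest mean among those annotated to exactly 1 symbol. NIH-CAR is 1 clone of NIH-3T3 mouse fibroblasts that stably expresses CARΔ1, a form of the coxsackie-adenovirus receptor, so that adenoviral vectors can enter. Cells at passage 12 were exposed to virus for 2 h. The deleted-receptor cells then received 1 µM rosiglitazone, also called BRL49653. The empty-vector cells then received DMSO. The remaining 3 arrays, from cells given HA-tagged full-length PPARγ2 and the same agonist, shared the estimate of the spread and are used where the 2 receptors are compared. Receptor and agonist changed together between the groups compared, so their separate shares of a difference cannot be told apart.

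PPARγ is a ligand-activated transcription factor that binds DNA as a heterodimer with the retinoid X receptors and directs the formation of fat cells. Its A/B-domain, at the N-terminus, carries an activation function that works without ligand, while the ligand-dependent activation function lies in the C-terminal ligand-binding domain, which rosiglitazone occupies. The deleted receptor, HA-PPARgCDE, keeps the DNA-binding and ligand-binding domains. Textbook targets of PPARs in fat cells include genes for the binding, storage and oxidation of fatty acids.

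All levels are log2 intensities and all differences are deleted receptor minus empty vector on that scale unless another contrast is named, so a difference of 1 is a doubling. A gene was called where its p from limma, adjusted over the 18193 genes by the Benjamini-Hochberg method, was under 0.05. A total of 29 genes were called higher, 0.159% of all genes, and 2 were called lower, 0.011%. Arrays of equal number deviated together between these groups, and with that number as a block over all 9 arrays 120 genes were called higher (0.66%) and 46 lower (0.253%). Full-length array 1 and empty-vector array 1 did not deviate together (correlation across genes -0.121). Fitted in the 6 compared arrays alone, the block called 36 higher (0.198%) and 6 lower (0.033%). Of the 31 genes called without the block, 31 were called with it over 9 arrays, 23 with it in the 6 arrays and 20 in the 6 arrays without it. Of the 135 genes called only with the block over 9 arrays, 18 were also called with it in the 6. Below, the block without further words is the one over 9 arrays. In each of the 31, the 3 arrays of one group lay beyond all 3 of the other. Among all genes, the deleted-receptor arrays lay entirely above the empty-vector arrays in 3.86% and entirely below in 4.03%. The median difference over all genes was -0.03 and the median standard error (SE) was 0.16. The p-values reflect array-to-array spread in a single cell line. The labels speak of 3 experiments without saying which array came from which.

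**Figure D1:**
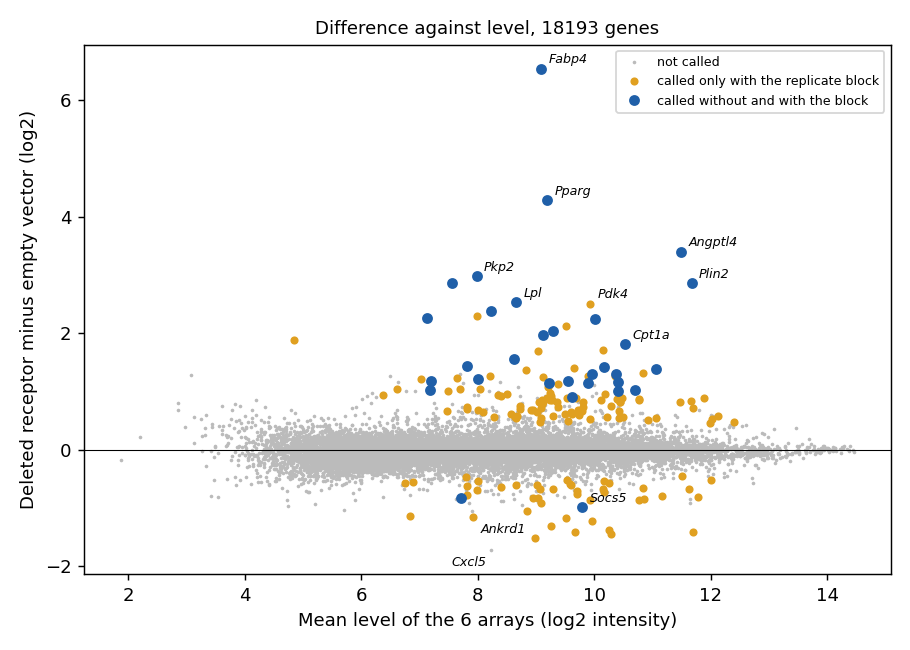
Difference between deleted receptor with rosiglitazone and empty vector with vehicle (vertical axis, log2) against the mean level of the 6 arrays (horizontal axis, log2 intensity) for 18193 genes, 1 point a gene. The 31 genes called without and with the replicate block (blue) include 29 above and 2 below 0, and Fabp4 lies highest at 6.54; orange points are the 135 genes called only with the block.

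Pparg itself, the gene of the introduced receptor, was at 7.01, 6.99 and 7.17 on empty-vector arrays 1, 2 and 3 and at 10.74, 12.01 and 11.26 on deleted-receptor arrays 1, 2 and 3. The lowest deleted-receptor array was thus 3.58 units above the highest empty-vector array. The difference was 4.28 (SE 0.41, limma adjusted p = 0.00228). Its 1 probe set does not separate the transcript of the virus from that of the cell, and whether its probes lie in the deleted part was not examined. The genes of the heterodimer partners and of the other PPARs were not called: Rxra differed by -0.04, Rxrb by 0.11, Rxrg by -0.10, Ppara by 0.10 and Ppard by 0.10. Cxadr, the mouse gene of the virus receptor, differed by 0.13 (SE 0.12, limma adjusted p = 1.00).

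The promoters of genes that rose were searched for the DR1 element, the pair of AGGTCA repeats spaced by 1 base that PPAR-RXR heterodimers bind. The search used the 250 bases before each RefSeq start site (GRCm38.p6) on both strands for AGGTCANAGGTCA with up to 2 mismatches. Windows were given for 25 of the 29 genes called higher, 34 windows in all, and 3 windows of 3 genes held a match. Over all 32851 windows 3.24% did, and over measured genes 496 of 14452 (3.43%). The 3 genes were the droplet coat gene Plin2 (chr4:86670060-86670309, minus strand), the aldehyde dehydrogenase gene Aldh9a1 (chr1:167349741-167349990, plus strand) and the sialyltransferase gene St6gal1 (chr16:23290220-23290469, plus strand). Capitals mark the match, which in Plin2 runs on the opposite strand and reads AGGTCAGGGGTCC there. No exact match was found among the 25 genes with a window. The matches are descriptions of sequence and were not tested for binding.
Plin2: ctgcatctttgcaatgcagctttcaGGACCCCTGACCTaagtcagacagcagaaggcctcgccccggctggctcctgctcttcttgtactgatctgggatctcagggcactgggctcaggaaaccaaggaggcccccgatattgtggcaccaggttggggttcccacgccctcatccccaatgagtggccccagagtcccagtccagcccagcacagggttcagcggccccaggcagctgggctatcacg
Aldh9a1: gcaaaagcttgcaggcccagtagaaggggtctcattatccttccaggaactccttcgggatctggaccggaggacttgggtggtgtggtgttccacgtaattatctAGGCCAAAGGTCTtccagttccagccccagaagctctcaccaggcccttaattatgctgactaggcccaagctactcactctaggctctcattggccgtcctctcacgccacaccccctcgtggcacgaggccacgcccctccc
St6gal1: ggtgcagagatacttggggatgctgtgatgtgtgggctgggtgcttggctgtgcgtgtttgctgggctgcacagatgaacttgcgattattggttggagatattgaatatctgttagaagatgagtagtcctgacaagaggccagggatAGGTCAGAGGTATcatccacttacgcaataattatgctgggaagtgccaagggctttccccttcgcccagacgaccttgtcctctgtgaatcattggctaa

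Genes that handle fatty acids were among those with the largest differences. Fabp4, whose product carries fatty acids in fat cells, was at 6.03, 6.02 and 5.39 on empty-vector arrays 1 to 3 and at 12.89, 13.15 and 11.04 on deleted-receptor arrays 1 to 3. Array 3 of the deleted receptor was lower than its companions and still lay far above every empty-vector array. The difference was 6.54 (SE 0.47, adjusted p = 0.000911), and the 4 probe sets of the gene gave 3.14 to 6.70. All its empty-vector values lay below 7.34, the lowest median over genes of the 6 arrays, as did those of 7 other genes called higher (Mob3b, Kank3, Pkp2, Pde1b, Ppcs, Pparg and Spin4). The deposited values carry no detection calls, so these differences are not given as folds. In bulk RNA of this kind, more cells that express a gene and more RNA per cell cannot be told apart. Fabp4 was the only member called of the 19 measured genes for fatty acid uptake, binding and activation, whose median difference was 0.04. Acsl4, which activates arachidonic acid, fell with the block alone, by 0.52 (limma adjusted p = 0.0471 with the block, 0.121 with it in the 6 arrays and 1.00 without). The fatty acid translocase gene Cd36 stood at 5.66, 6.25 and 5.82 with empty vector and 5.91, 5.73 and 6.21 with the deleted receptor, groups that overlapped.

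Lipoprotein lipase and its secreted inhibitor rose together. Lpl, which releases fatty acids from circulating triglyceride, was at 7.71, 7.15 and 7.32 with empty vector and at 10.25, 10.10 and 9.43 with the deleted receptor. The groups lay 1.72 units apart at their nearest arrays, and the difference was 2.54 (SE 0.23, adjusted p = 0.00182). Angptl4, which encodes the inhibitor, was at 9.90, 8.84 and 10.67 with empty vector and at 13.11, 13.03 and 13.46 with the deleted receptor. Its empty-vector arrays were spread over 1.83 units while its deleted-receptor arrays lay close together. The difference was 3.40 (SE 0.38, adjusted p = 0.00737). The other 10 measured members of that list, Gpihbp1 and the apolipoprotein genes Apoc2, Apoc3 and Apoa5 among them, were not called, and the list's median was -0.03.

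Plin2, which coats lipid droplets in most cell types, was at 10.23, 9.75 and 10.75 with empty vector and at 12.73, 12.88 and 13.72 with the deleted receptor. Array 3 was the highest in both groups, and the arrays did not overlap. The difference was 2.87 (SE 0.35, adjusted p = 0.0125). Fitm2, a protein of the endoplasmic reticulum needed for droplet budding, was at 7.86, 8.11 and 8.12 with empty vector and 8.91, 9.28 and 8.78 with the deleted receptor. That difference, 0.96, was called with the block (limma adjusted p = 0.0263) and not with it in the 6 arrays (0.0823) or without it (0.109). The fat-cell droplet genes Plin4 (0.57), Cidec (0.55), Cidea (0.13) and Plin5 (-0.22) were not called in either fit. Over the 16 measured droplet genes the median was 0.07, and over the 11 genes of lipolysis, none of them called in either fit, it was -0.02, with Pnpla2 highest at 0.53.

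Oxidation of fatty acids was represented by Cpt1a, the carnitine acyltransferase that controls entry into mitochondria. It was at 9.75, 9.25 and 9.86 with empty vector and at 11.38, 11.52 and 11.40 with the deleted receptor. The deleted-receptor arrays lay close together, and the groups did not overlap. The difference was 1.81 (SE 0.15, adjusted p = 0.0017), a 3.52-fold rise, and its 3 probe sets gave 1.10 to 1.81. Its partner on the inner membrane, Cpt2, differed by 0.88 and was called with the block (limma adjusted p = 0.0189, with 0.08 for the block in the 6 arrays and 0.119 without). The carrier Slc25a20 (0.67) and the carnitine importer Slc22a5 (0.70) were not called. Neither overlapped between the groups, and 3.86% of all genes likewise lay entirely above the empty-vector arrays. The carnitine list of 7 measured genes had a median of 0.67, against -0.03 for all genes.

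The 22 measured genes of mitochondrial beta-oxidation had a median of 0.38. Etfdh, which passes the electrons of fatty acid oxidation to ubiquinone, was the member called without the block. It was at 9.12, 9.27 and 9.13 with empty vector and 10.04, 10.21 and 9.98 with the deleted receptor, arrays that lay tightly together within each group. Its difference was 0.91 (SE 0.12, limma adjusted p = 0.0182), and its other probe set gave 0.17. With the block 6 members were called, all higher: Etfdh, the dienoyl-CoA isomerase gene Ech1 (1.26), the thiolase gene Acaa2 (0.90), the dehydrogenase genes Hadh (0.72), Acadvl (0.68) and Acadl (0.66). Over all genes 0.66% were called higher with the block and 0.198% with it in the 6 arrays. In Acadl the groups overlapped. In the 6 arrays the block kept only Etfdh and Ech1 (limma adjusted p = 0.0421 and 0.0307), and the other 4 had adjusted p from 0.0758 (Acadl) to 0.0844 (Hadh). Without the arrays numbered 3 and without the block, 0 members were called. Acadm, a textbook PPAR target, was at 10.13, 10.18 and 9.85 with empty vector and 10.71, 10.92 and 9.85 with the deleted receptor, so that the arrays numbered 3 were alike and the other pairs were not. None of the 32 measured genes of the respiratory chain and uncoupling was called in either fit, and their median was 0.0008.

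Acot2, a mitochondrial thioesterase that splits fatty acyl-CoA, was at 8.0, 7.64 and 7.89 with empty vector and at 9.43, 9.53 and 9.25 with the deleted receptor. No array of one group reached the other, and the difference was 1.56 (SE 0.14, adjusted p = 0.00174). Acot7 was called with the block alone (0.56, limma adjusted p = 0.04, and 0.114 with the block in the 6 arrays). Ppcs, an enzyme of coenzyme A synthesis, rose by 1.03 (SE 0.11, adjusted p = 0.00395). In the peroxisome list, 0 of 23 measured genes were called without the block and 3 with it: Ech1, the import factor gene Pex13 (0.67) and catalase, Cat (0.56). Of these Ech1 alone was called with the block in the 6 arrays (adjusted p of Pex13 0.109 and of Cat 0.0992). Pex11a, a peroxisome division factor, was at 7.74, 8.07 and 7.62 with empty vector and 9.20, 9.58 and 8.13 with the deleted receptor. Its arrays numbered 3 differed least, and the difference of 1.16 was not called (limma adjusted p = 0.921, and 0.0757 with the block).

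Pdk4, the kinase that inactivates pyruvate dehydrogenase when fat is burned, was at 9.59, 8.52 and 7.93 with empty vector and at 11.59, 11.09 and 10.89 with the deleted receptor. Levels ran down in the same array order in both groups, and the difference within equal numbers was 2.01, 2.57 and 2.96. The mean difference of 2.51 (SE 0.39) missed the threshold without the block (limma adjusted p = 0.0571) and passed with it (0.00544, and 0.0267 in the 6 arrays). Pdk1, Pdk2 and Pdk3 differed by 0.26, 0.05 and -0.07 and were not called. Fads3, of the desaturase family, rose by 1.16 (SE 0.17, adjusted p = 0.038) and was the called member of 21 measured genes of fatty acid synthesis and desaturation, though not in the 6 arrays alone (limma adjusted p = 0.0818, and 0.0944 with the block). Their median was 0.11, with Fasn at 0.11 and Scd1 at 0.36. Among 19 genes of triglyceride synthesis and 22 of cholesterol metabolism 0 were called in either fit.

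Of 35 measured textbook PPAR targets, 6 were called higher and 9 with the block, and 0 were called lower. The 6 were Fabp4, Angptl4, Plin2, Lpl, Cpt1a and Mgst1, and the block added Pdk4, Acadl and Olr1, the receptor for oxidised low-density lipoprotein (1.89, limma adjusted p = 0.0449 with the block and 0.617 without). Olr1 lay below the lowest gene median, 7.34, on all 6 arrays, and for Acadl the groups overlapped. With the block in the 6 arrays 6 were called: Fabp4, Angptl4, Plin2, Lpl, Cpt1a and Pdk4. Over all genes 0.159% were called higher without the block, 0.66% with it and 0.198% with it in the 6 arrays. The list's members were chosen with earlier results of these data known. The list's median was 0.13, against -0.03 over all genes. Genes that mark the mature fat cell were among those not called: Adipoq differed by 0.03, Cebpa by 0.02, Lipe by -0.02, Pck1 by -0.15 and Aqp7 by 0.09. The brown-fat gene Ucp1 differed by -0.08. In 16 of the 35 targets all 6 arrays lay below the lowest gene median, with mean levels of 5.46 and 5.49 for Adipoq, 5.46 and 5.55 for Aqp7 and 5.91 and 5.95 for Cd36 with empty vector and deleted receptor. At such levels a small difference does not show that the transcript was unchanged.

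**Figure D2:**
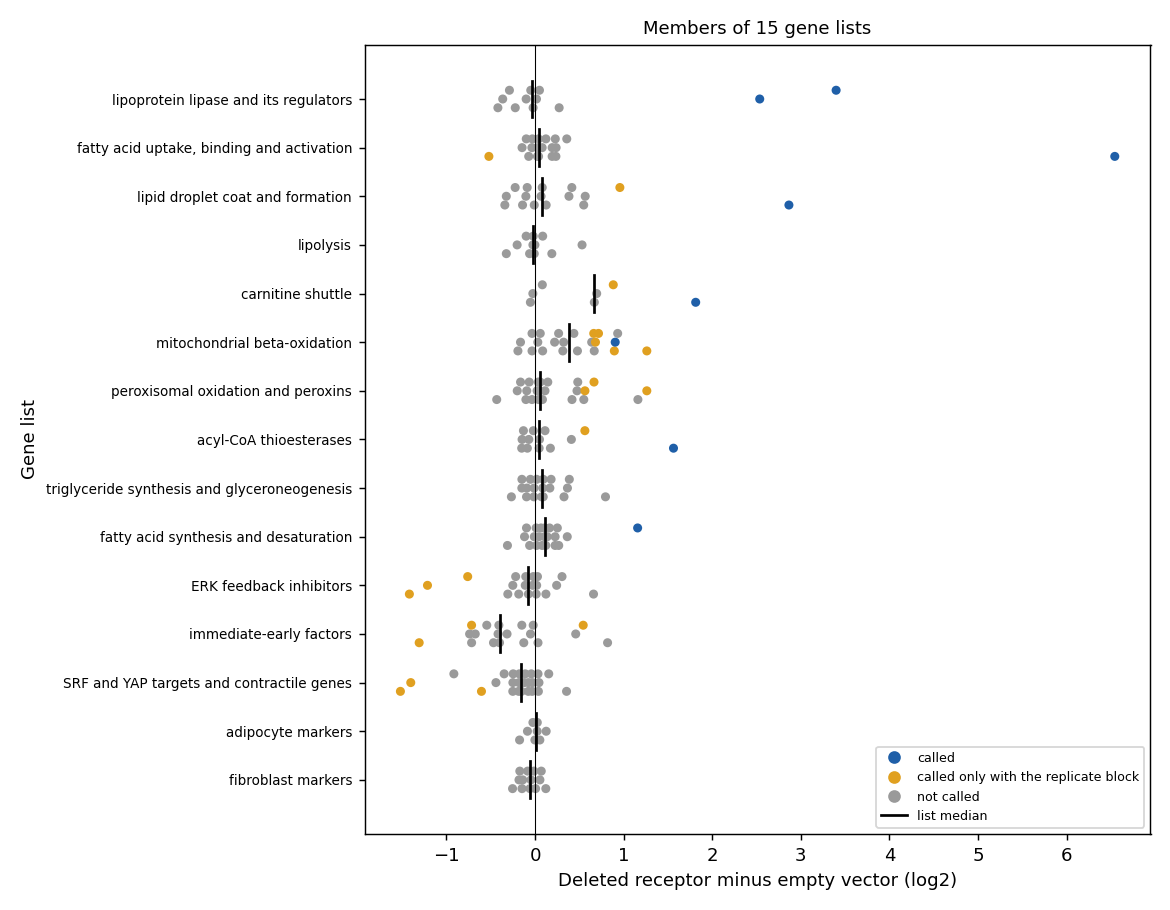
Difference between deleted receptor and empty vector (horizontal axis, log2) for the measured members of 15 gene lists (vertical axis), 1 point a gene, with the list median as a black bar. Called genes are blue and those called only with the block orange; the medians of the carnitine (0.67) and beta-oxidation (0.38) lists lie to the right, that of the immediate-early factors (-0.40) to the left, and those of fibroblast and adipocyte markers near 0.

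Several called genes have roles outside fat metabolism. Pkp2, a plaque protein of desmosomes, was at 6.19, 6.65 and 6.63 with empty vector and at 9.32, 9.57 and 9.53 with the deleted receptor. The gap between the groups was many times the spread within either, and its adjusted p was the smallest of all genes called (difference 2.98, SE 0.16, adjusted p = 0.000165). Its 4 probe sets gave 0.22 to 2.98. Kank3, an ankyrin-repeat adaptor of the cytoskeleton, was at 6.23, 5.76 and 6.39 with empty vector and at 8.79, 8.59 and 9.60 with the deleted receptor (difference 2.87, SE 0.38, adjusted p = 0.021). Number 3 was the highest in both groups. Pkp1, Pkp3 and Pkp4 differed by 0.01, 0.05 and -0.05, and Kank1, Kank2 and Kank4 by -0.03, -0.38 and -0.07, and none of these was called. The junction list of 17 measured genes had a median of 0.05.

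Mgst1, a membrane-bound glutathione transferase, was at 6.58, 6.83 and 7.70 with empty vector and at 9.21, 9.88 and 9.16 with the deleted receptor. Empty-vector array 3 was the highest of its group, which made the difference within number 3, 1.46, smaller than the 2.63 and 3.05 within numbers 1 and 2. The mean difference was 2.38 (SE 0.31, adjusted p = 0.021, with 0.051 in the 6 arrays alone and 0.0823 with the block there), and the second probe set of the gene gave 0.23. Aldh9a1, which oxidises aldehydes derived from polyamines and carnitine precursors, rose by 1.01 (SE 0.13, adjusted p = 0.019, with 0.0808 in the 6 arrays alone). Of 34 measured genes of glutathione, epoxide and aldehyde metabolism these 2 were called, and the block added Mgst3 (0.93) and Cat. None of the 4 was called with the block in the 6 arrays. Fah, the last enzyme of tyrosine breakdown, was at 8.39, 8.38 and 8.05 with empty vector and at 10.18, 10.63 and 10.12 with the deleted receptor, groups 1.73 units apart at their nearest arrays (difference 2.04, SE 0.17, adjusted p = 0.0017).

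Regulators of signalling and transcription were also called. Cdk18, a kinase of the PCTAIRE family, was at 8.17, 8.16 and 8.08 with empty vector and at 10.07, 10.50 and 9.75 with the deleted receptor. All 3 empty-vector arrays lay close together, well below the others (difference 1.97, SE 0.18, adjusted p = 0.00217). Mob3b, of the MOB family of kinase regulators, rose by 2.26 (SE 0.17, adjusted p = 0.000911), and its second probe set gave 0.32. Pde1b, a calcium-dependent cyclic nucleotide phosphodiesterase, rose by 1.19 (SE 0.11, adjusted p = 0.00227). The corepressor gene Tle3 rose by 1.15 (SE 0.16, adjusted p = 0.0336), and the spindlin family gene Spin4 rose by 1.44 (SE 0.13, adjusted p = 0.00174). Casp8, the initiator caspase of death receptors, was 1.14 higher (SE 0.13, adjusted p = 0.00709). Trim25, a ubiquitin ligase of the RIG-I pathway, was at 9.47, 9.62 and 9.28 with empty vector and 10.80, 10.97 and 10.87 with the deleted receptor, 1.17 units apart at the nearest arrays (difference 1.42, SE 0.12, adjusted p = 0.0017). The other 21 measured interferon response genes were not called, and their list's median was -0.11.

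The remaining genes called higher act in membranes, organelles and transport. Lpcat3, which places polyunsaturated fatty acids in phospholipids, rose by 1.03. The haem lyase gene Hccs, which attaches haem to cytochrome c, rose by 1.30, the endoplasmic reticulum peptidase gene Ermp1 by 1.30 and the cargo receptor gene Tmed5 by 1.39. St6gal1, which adds sialic acid to glycoproteins, rose by 1.21, the vesicular transporter gene Slc18b1 by 1.18 and the predicted gene Gm20559 by 2.25. In Tmed5 the 5 probe sets gave -0.03 to 1.42, and in St6gal1 the 2 gave 0.03 and 1.21. Of the 31 called genes 21 had several probe sets, and 9 of those called higher had a probe set with a difference under 0.5.

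**Figure D3:**
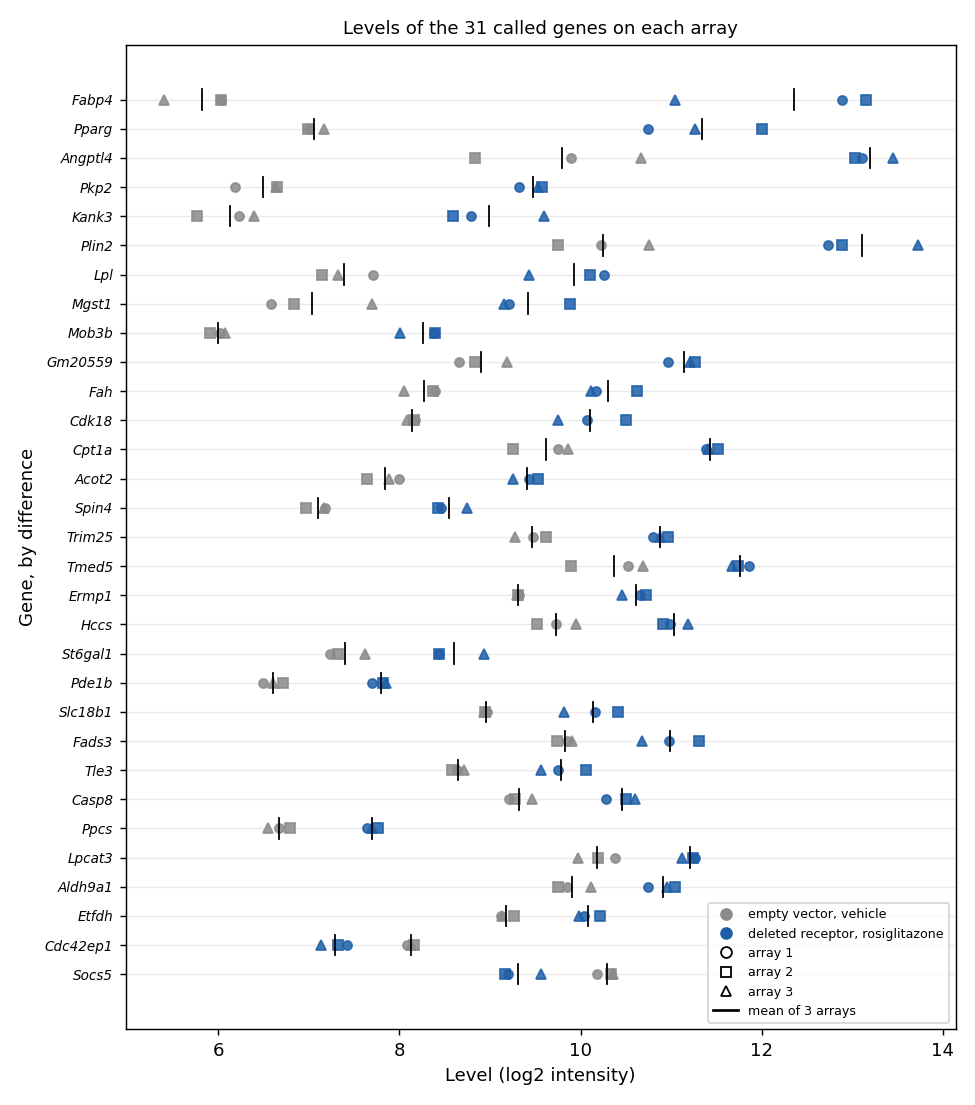
Level (horizontal axis, log2 intensity) of the 31 called genes (vertical axis, by difference) on empty-vector (grey) and deleted-receptor (blue) arrays, with the array number as the symbol and the mean of 3 arrays as a black bar. In every gene shown the blue and grey symbols do not overlap; the bars are 6.54 apart for Fabp4 at the top, and Cdc42ep1 and Socs5 at the bottom are lower with the deleted receptor.

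Both genes called lower encode regulators of signalling. Socs5, a suppressor of cytokine and growth factor signalling, was at 10.18, 10.33 and 10.36 with empty vector and at 9.20, 9.16 and 9.57 with the deleted receptor. Every deleted-receptor array was at least 0.61 units below every empty-vector array, and both probe sets agreed (-1.04 and -0.98). The difference was -0.98 (SE 0.13, adjusted p = 0.021). Cdc42ep1, an effector of the GTPase CDC42, was at 8.08, 8.16 and 8.13 with empty vector and at 7.42, 7.32 and 7.14 with the deleted receptor (difference -0.83, SE 0.12, adjusted p = 0.0336). Its other probe set gave -0.15. Neither gene was called in the 6 arrays alone, where limma adjusted p was 0.0836 for Socs5 and 0.0818 for Cdc42ep1, or with the block there (0.0675 and 0.0758). Cdc42ep1 lost the call in 15 of 20 alternatives, among them subtraction of array medians (0.087), quantile normalization (0.0972) and the mean of its probe sets (0.418). No other member of the SOCS list of 10 genes was called, and its median was -0.04.

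With the block over 9 arrays, genes of growth factor and mechanical responses were called lower, and none of those named in the next sentences was called with the block in the 6 arrays. Dusp6, the phosphatase that switches off ERK, was at 10.57, 10.40 and 10.17 with empty vector and at 9.17, 8.57 and 9.14 with the deleted receptor. The groups did not overlap, and within equal numbers the differences were -1.40, -1.83 and -1.03. The mean of -1.42 (SE 0.23) had a limma adjusted p of 0.0221 with the block, 0.0758 with it in the 6 arrays and 0.0697 without. Errfi1, an inhibitor of the epidermal growth factor receptor (-1.21), and Spry2, an inhibitor of receptor tyrosine kinase signalling (-0.76), were also called with the block (limma adjusted p = 0.0823 and 0.0747 with it in the 6 arrays). These were the 3 called of 19 measured ERK feedback inhibitors, all lower, where the block called 0.253% of all genes lower. The list's median was -0.07 and its highest difference 0.66. The deleted-receptor arrays lay entirely below the empty-vector arrays in 4 of the 19 and entirely above in 2 (4.03% and 3.86% over all genes). In the 6 arrays 0 of the 19 were called with the block.

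Egr1, an early growth response factor, was at 9.93, 10.23 and 9.56 with empty vector and at 8.84, 8.48 and 8.48 with the deleted receptor, again with no overlap (difference -1.31, SE 0.21, limma adjusted p = 0.0203 with the block, 0.0782 with it in the 6 arrays and 0.0697 without). The 19 immediate-early factors had a median of -0.40 and ran up to 0.82. In 8 of them all deleted-receptor arrays lay below all empty-vector arrays, where 4.03% of all genes did. In 2 they lay entirely above, where 3.86% of all genes did. With the block Egr1 and Fosl2 (-0.72) were called lower and Fosl1 (0.54) higher, though in Fosl1 the groups overlapped. With the block in the 6 arrays 0 members were called (limma adjusted p of Fosl2 0.129 and of Fosl1 0.109). Jun, Junb and Fos differed by -0.72, -0.74 and -0.54 and were not called in either fit. Ankrd1 and Ccn2, targets of the mechanosensitive factors SRF and YAP, differed by -1.52 and -1.40 and were called with the block (limma adjusted p = 0.024 and 0.0276, and 0.0758 and 0.0835 with it in the 6 arrays). For Ccn2 the levels were 12.37, 11.99 and 12.84 with empty vector and 11.16, 10.05 and 11.79 with the deleted receptor, with array 2 lowest in both groups. The SRF coactivator gene Mrtfa (-0.60, limma adjusted p = 0.0992 with the block in the 6 arrays) was the other member called of 25 measured SRF and YAP genes, while Acta2 (-0.07), Tagln (-0.18) and Ccn1 (0.36) were not called.

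Cebpd, a transcription factor gene of early fat cell differentiation, was at 11.42, 10.87 and 10.76 with empty vector and at 9.90, 9.08 and 9.73 with the deleted receptor. All pairs fell, by 1.52, 1.78 and 1.03, and the groups did not overlap (difference -1.44, SE 0.26, limma adjusted p = 0.0168 with the block, 0.0745 with it in the 6 arrays and 0.109 without). Among the other 27 adipogenic transcription factors Tle3 was the only member called in either fit. Of 33 chemokine, cytokine and NF-kB genes, the block called the hyaluronan-binding gene Tnfaip6 (-1.15), the growth factor gene Csf1 (-0.86) and the prostaglandin synthase gene Ptgs2 (-0.80) lower and Il6 (1.04) higher. Of these Tnfaip6, Csf1 and Il6 were also called with it in the 6 arrays (adjusted p 0.0327, 0.0479 and 0.0446) and Ptgs2 was not (0.0988). None of these genes was called without the block, and for Csf1, Ptgs2 and Il6 the groups overlapped. Il6 read 6.93, 5.71 and 5.64 with empty vector and 8.05, 6.57 and 6.77 with the deleted receptor. Except on deleted-receptor array 1 it lay below the lowest gene median, 7.34. Cxcl5, a chemokine gene named after its values were seen, was at 8.76, 10.08 and 8.45 with empty vector and at 7.01, 7.65 and 7.46 with the deleted receptor. It had the lowest difference of all genes, -1.72 (SE 0.42), and was not called (limma adjusted p = 0.401, and 0.0702 with the block).

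Other genes with the largest differences among those called only with the block were spread over many functions. Deptor, an inhibitor of the mTOR kinase, was 2.30 higher, the retinoic acid hydroxylase gene Cyp26b1 1.72, the antiproliferative gene Btg2 1.69 and the complement protease gene Masp1 1.40. The ephrin ligand gene Efnb1 was 1.36 higher and its relative Efnb2 1.17 lower (difference -1.17). Tmem134 (1.31), Tnfaip2 (1.27), the SNARE gene Vamp5 (1.25) and the insulin receptor substrate gene Irs2 (1.23) were also higher. Rgs2, a regulator of G-protein signalling (-1.37), Col11a1 (-1.14), Ifi202b (-0.87) and Pmp22 (-0.83) were lower. The collagen genes Col4a1 (0.84), Col6a1 (0.53) and Col6a2 (0.59), were the members called, all with the block, of 32 extracellular matrix genes. Of 23 measured p53 target and growth arrest genes the block called Btg2 and Btg1 (0.48) higher and the polo-like kinase gene Plk2 (-0.70) lower, and of 20 other nuclear receptors it called the retinoic acid receptor gene Rarg lower (-0.60). In 48 of the 135 genes called only with the block the groups overlapped, as in Txnip, a thioredoxin inhibitor gene, where the means were 8.46 and 10.59 and the pairs differed by 2.41, 2.10 and 1.89. Txnip was chosen after its values were seen. Of the genes in this paragraph, Deptor, Cyp26b1, Masp1, Vamp5, Rgs2 and Txnip were also called with the block in the 6 arrays and the others were not. Probe sets of some of these genes disagreed, with -0.70 to 0.27 in Plk2 and -0.08 to 1.27 in Tnfaip2. Those of Deptor gave 0.01 to 2.51 and those of Rgs2 -1.44 to -0.14. Among genes of earlier paragraphs, the other probe set of Acadl gave -0.09, of Spry2 -0.11 and of Fosl2 -0.14. All 166 genes called with the block had 3 pairs in the same direction, which 33.7% of all genes had. The block favours genes whose pairs agree, so this follows largely from how they were chosen.

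**Figure D4:**
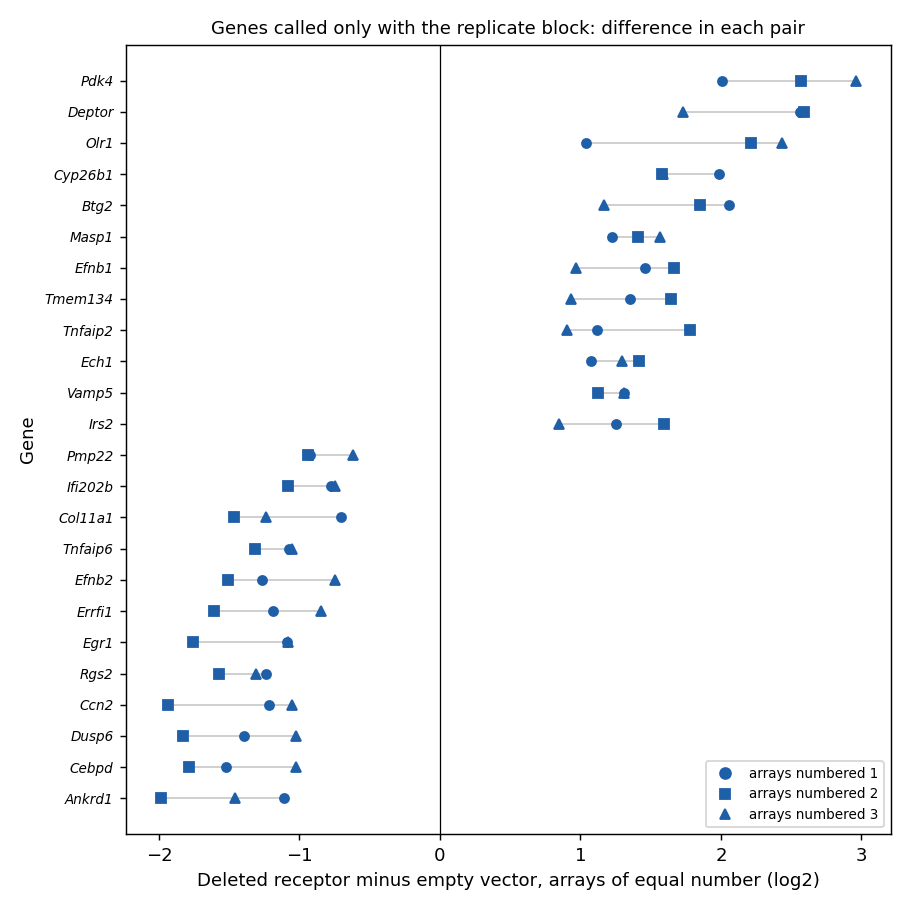
Difference between deleted receptor and empty vector within arrays of equal number (horizontal axis, log2) for the 12 largest differences in each direction (vertical axis) among genes called only with the replicate block and not overlapping between groups. Symbols give the array number and grey lines span the 3 pairs. Pdk4 ranges from 2.01 to 2.96 and Dusp6 from -1.83 to -1.03. In each gene shown all 3 pairs lie on the same side of 0, which groups without overlap must give.

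Markers of fibroblasts and of other cell types were used to check the label of the cells. On the 3 empty-vector and 3 deleted-receptor arrays, Col1a1 averaged 13.49 and 13.56, Vim 14.08 and 14.13, and Fn1 13.55 and 13.49. Of 13 fibroblast markers 0 were called in either fit, and 2 were below the lowest gene median on all 6 arrays. The list's mean level ran from 10.77 to 11.25 over the empty-vector arrays and from 10.63 to 11.28 over the deleted-receptor arrays. Of 8 measured adipocyte markers 0 were called, 5 were below the lowest gene median on all 6 arrays, and the mean level ran from 6.29 to 6.60 and from 6.41 to 6.50. That list left out Fabp4, Lpl and the introduced Pparg, also genes of fat cells, which were called higher (6.54, 2.54 and 4.28). Below the lowest gene median on all 6 arrays were 9 of 12 skeletal muscle, 7 of 9 bone and cartilage and 8 of 11 leukocyte markers. So were 5 of 10 epithelial and 10 of 10 endothelial markers. These 5 lists also had 0 members called, as did cell cycle (33 genes), protein folding stress (30), glycolysis (20) and coregulator (20) lists in either fit.

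Arrays numbered 3 stood apart. On the first principal component of the 6 arrays, with 46.0% of the variance, they scored 31.8 and 30.1 and the others -20.4 to -11.1, and their 18S ribosomal RNA controls averaged 8.67 and 8.06 against 11.4 to 12.4. Each number 3 array had a partner in the other group. In a fit without them 49 genes were called higher and 6 lower, and with the block 79 and 17. Without the block Etfdh and Cdc42ep1 lost their calls there (limma adjusted p = 0.0694 and 0.0727). Fewer arrays entered the estimate of the spread, so these counts do not measure the part of the number 3 arrays in the results. In the deleted-receptor group array 3 was the lowest of the 3 in 14 of the 29 genes called higher, and array 2 the highest in 18.

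Of the 31 called genes, 16 passed the threshold under every alternative setting they were fitted in: Acot2, Angptl4, Cdk18, Cpt1a, Ermp1, Fabp4, Fah, Gm20559, Lpl, Mob3b, Pde1b, Pkp2, Pparg, Ppcs, Spin4 and Trim25. The other 15 each lost the call when at least 1 array was left out. Calls were also lost where the median of each array was subtracted (Slc18b1, Tle3, Fads3 and Cdc42ep1), with quantile normalization (St6gal1, Fads3 and Cdc42ep1) and with probe sets averaged (Kank3, Etfdh, Tmed5, St6gal1, Tle3 and Cdc42ep1). In the 6 compared arrays alone 11 were lost: Lpcat3, Aldh9a1, Mgst1, Etfdh, Socs5, Tmed5, Slc18b1, St6gal1, Tle3, Fads3 and Cdc42ep1. With the block there Lpcat3, Etfdh and St6gal1 were called and the other 8 of these were not. Without empty-vector array 1 the calls of Hccs, Plin2, Aldh9a1, Kank3, Mgst1, Etfdh, Socs5, Tmed5, Slc18b1, St6gal1, Tle3, Fads3 and Cdc42ep1 were lost. Leaving out empty-vector array 2 ended all of these except Tmed5, and also Casp8 and Lpcat3. Without deleted-receptor array 2 the lost calls were the same as without empty-vector array 2, except that Hccs stayed called and Tmed5 did not. Without deleted-receptor array 1 those of Hccs, Lpcat3, Kank3, Mgst1, Etfdh, Socs5, Tmed5, Slc18b1, St6gal1, Tle3, Fads3 and Cdc42ep1 were lost. Plin2 then had limma adjusted p = 0.0733 (without empty-vector array 1), 0.0748 (without empty-vector array 2) and 0.0605 (without deleted-receptor array 2). Number 3 arrays mattered less: without that of empty vector 7 calls were lost (Kank3, Etfdh, Socs5, Slc18b1, Tle3, Fads3 and Cdc42ep1) and without that of the deleted receptor 6 (Aldh9a1, Kank3, Mgst1, Tmed5, St6gal1 and Cdc42ep1). Leaving out full-length array 1 or 2, which enter through the spread, ended 7 calls each, those of Socs5, Tmed5, Slc18b1, St6gal1, Fads3 and Cdc42ep1 in both, with Tle3 for array 1 and Aldh9a1 for array 2.

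The called genes were then compared between the deleted and the full-length receptor, both with rosiglitazone. The test of this difference called 0 genes (0.0% of all genes), with and without the block, while 99 genes were higher and 178 lower with the deleted receptor at an unadjusted p under 0.05 in limma. Of the 29 genes called higher against empty vector, 24 had a lower mean with the deleted than with the full-length receptor, against 54.0% of all genes. In 18 of the 29 all 3 equal-numbered pairs were lower, against 12.4% of all genes. In 9 of the 29 every deleted-receptor array lay below every full-length array, where 3.14% of all genes did: Lpl, Mgst1, Pde1b, Casp8, Ermp1, Lpcat3, Cdk18, Tle3 and Pkp2. The comparison shares the deleted-receptor arrays with the one that chose the genes.

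Lpl had the lowest difference among the called genes. Full-length arrays 1 to 3 read 11.40, 11.30 and 11.04, so each was above the highest deleted-receptor array, 10.25, and the difference between the receptors was -1.32 (95% interval -1.83 to -0.80, limma adjusted p = 0.871). For Fabp4 the full-length arrays were at 13.50, 13.63 and 13.13, which overlapped the deleted-receptor arrays, and the difference was -1.06 (95% interval -2.13 to 0.01). Next came Mgst1 at -0.89 (95% interval -1.59 to -0.18), Kank3 at -0.67 (-1.52 to 0.19) and Pde1b at -0.56 (-0.81 to -0.31). At the other end were Socs5 at 0.46 (95% interval 0.16 to 0.75) and Cdc42ep1 at 0.17 (-0.10 to 0.44), the genes lower than with empty vector. Pparg (0.09), Cpt1a (0.08) and St6gal1 (0.03) followed, with signs that changed under some alternatives for Pparg and St6gal1, as did that of Cdc42ep1. For Pparg the 95% interval was -0.83 to 1.01. The adjusted p of every called gene in this contrast was at least 0.871, which does not show that the receptors acted alike.

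**Figure D5:**
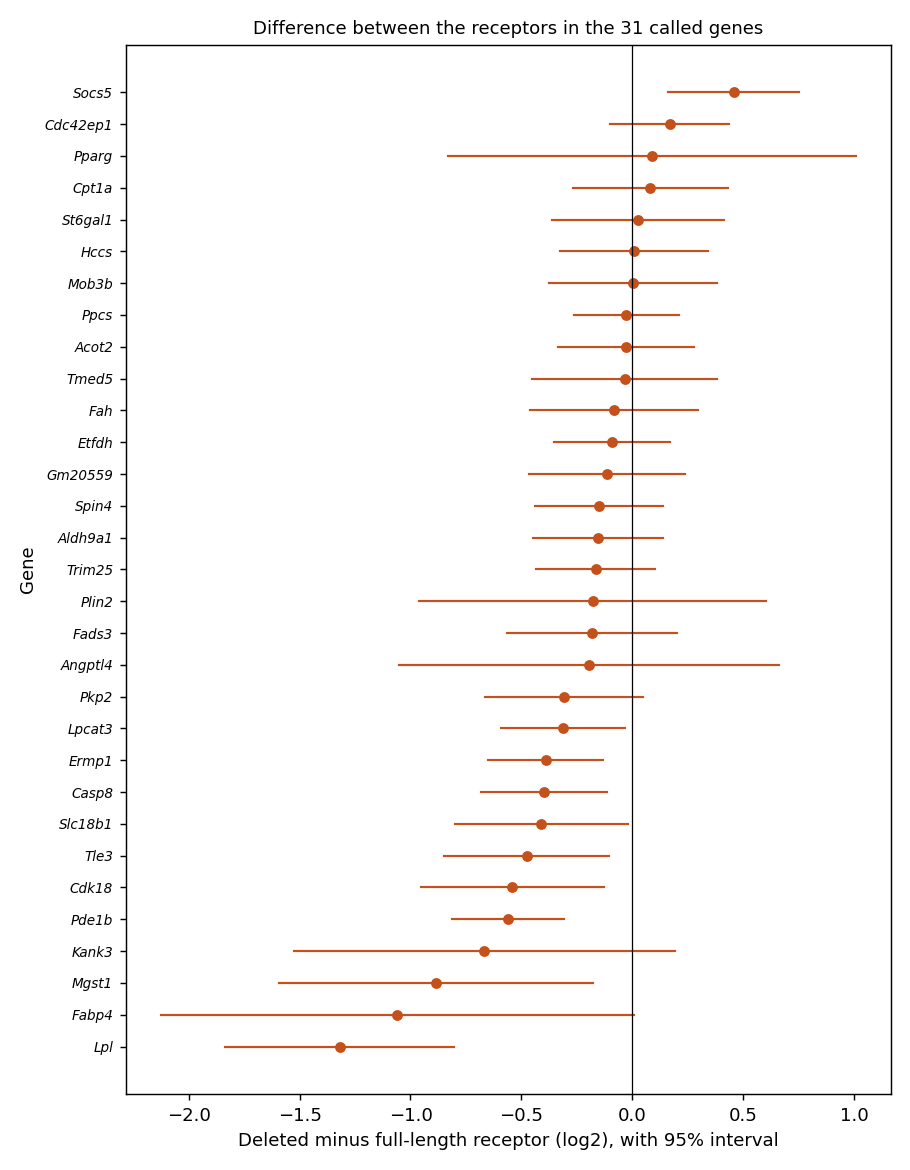
Difference between the deleted and the full-length receptor, both with rosiglitazone (horizontal axis, log2), for the 31 genes called against empty vector (vertical axis), as the limma estimate with its 95% interval. Lpl lies lowest at -1.32 and Socs5 highest at 0.46, and 0 of the differences passed the threshold.

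Outside the called genes, Cidec, a droplet fusion gene of fat cells, read 5.34, 5.19 and 4.93 on empty-vector arrays, 5.59, 6.11 and 5.40 on deleted-receptor arrays and 7.92, 8.20 and 6.86 on full-length arrays. The difference between the receptors, -1.96 (95% interval -2.69 to -1.23), had a limma adjusted p of 0.871. Fitm2 was at 9.76, 10.06 and 9.59 with the full-length receptor, above all its deleted-receptor arrays (difference -0.81, 95% interval -1.19 to -0.43, limma adjusted p = 1.00). Pcx, pyruvate carboxylase, was at 7.22, 7.12 and 7.16 on empty-vector arrays, 7.86, 8.54 and 7.49 on deleted-receptor arrays and 9.22, 9.50 and 8.44 on full-length arrays. Its difference from empty vector was 0.80 (SE 0.30, limma adjusted p = 1.00), and deleted-receptor array 2 overlapped the full-length group. Cidec and Pcx were chosen after their values were seen.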

How the data were processed

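Total RNA was measured on Affymetrix arrays. The deposited values are log2 intensities of 45101 probe sets. Per the submitters' processing notes, the authors obtained them by RMA (R package affy, R 2.5.0). They were used as deposited. Symbols came from the platform annotation; 932 probe sets with several symbols, 9211 with none and the controls were left out, and 9010 genes had more than 1 probe set. Group means were fitted with limma 3.58.1 (R 4.3.3) to all 9 arrays, with 6 residual degrees of freedom, and the code was tested on simulated data. Tables and figures used Python 3.11.15, pandas 2.3.3, numpy 2.4.6 and matplotlib 3.10.9. Arrays carry no read depth, so their number limits the precision. Equal numbers were treated as pairs because deviations from the group means correlated at 0.570, 0.521 and 0.708 between deleted receptor and empty vector, the labels giving the numbers only. Between the receptors these correlations were 0.297, 0.507 and 0.531, and between full-length receptor and empty vector -0.121, 0.631 and 0.255, so the block over 9 arrays also rests on a pair that did not deviate together.

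The gene lists, the tests and the genes described were chosen with earlier results of these data known. The genes named are all called genes, the 12 largest differences in each direction called only with the block and not overlapping, up to 4 called members of each of 40 lists, the receptor genes, the 5 highest and 5 lowest receptor differences among called genes, and uncalled textbook targets; other members of the lists and genes stated as such were picked after their values were seen. Alternatives were the replicate block (fixed, or random by duplicateCorrelation), other scalings, probe set averages, a filter on low levels, a trended prior and leaving out arrays. The block fitted in the 6 arrays alone and the block without the arrays numbered 3 were added after seeing the data.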

Additional observations from a re-analysis of the deposited data

Results flagged for a closer look

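Fat4, a cadherin gene, was at 8.69, 8.44 and 8.04 on empty-vector arrays, 9.29, 8.91 and 8.69 on deleted-receptor arrays and 8.16, 7.98 and 7.52 on full-length arrays. All 3 deleted-receptor arrays were above and all 3 full-length arrays below their equal-numbered empty-vector array, and the receptors differed by 1.08 (95% interval 0.57 to 1.59), which did not pass the threshold (limma adjusted p = 1.00, and 0.0784 with the block).

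The test between the receptors passed for single genes under single settings. Adamts4, a matrix protease gene, was lower with the deleted receptor by -0.959 where the replicate number was a random block. Cidec was lower by -2.36 where full-length array 3 was left out.

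The control probe sets were left out of the gene comparison, which measured Pcx through another probe set (0.80, not called). The 3′ control probe set of Pcx, which cells supply through their own pyruvate carboxylase transcript, was 0.8539 higher on average with the deleted receptor than with empty vector. It read 7.10, 7.23 and 7.07 with empty vector and 7.93, 8.54 and 7.49 with the deleted receptor, with no overlap.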

How the results depend on the processing

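Against 29 genes higher and 2 lower, the replicate block gave 120 and 46, a random block 56 and 12, leaving out the arrays numbered 3 gave 49 and 6, and both together 79 and 17. The block fitted in the 6 arrays alone gave 36 and 6, and those arrays without the block 20 and 0. Genes lower numbered 1 with the array median subtracted, 1 with quantile normalization, 1 with probe sets averaged and 7 among genes above the median level. Leaving out 1 array at a time gave 17 to 30 higher and 0 to 4 lower. Between the receptors 0 genes were lower except 1 with the random block (Adamts4) and 1 without full-length array 3 (Cidec), so leaving out single arrays gave 0 to 1. None of 81 genes followed under the alternatives changed direction against empty vector. They were not all the genes named here. Uncalled genes with differences near 0 had no settled direction: for Cebpa (0.02) the equal-numbered pairs differed by -0.27, -0.03 and 0.37. Small differences between the receptors reversed: St6gal1 to -0.0226 with probe sets averaged, -0.0602 without the arrays numbered 3 (with and without the replicate block), -0.1386 without deleted-receptor array 3 and -0.0636 without full-length array 2, in a range up to 0.11 (without deleted-receptor array 1); Pparg to -0.082 without the arrays numbered 3 (with and without the block), -0.247 without deleted-receptor array 2, -0.1908 without full-length array 1 and -0.1188 without full-length array 3, in a range up to 0.57 (without full-length array 2); Cdc42ep1 to -0.0525 with probe sets averaged. The causes were not tested. Where an array was left out of a fit, fewer arrays entered the estimate of the spread.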
